A study of Mus musculus with 13 samples.

Results

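The genes of glycolysis, gluconeogenesis, glycogen metabolism and the entry of fructose, galactose and pyruvate into these routes were examined in the murine liver. The set holds 37 of the 11779 genes of the liver table, chosen by symbol for their place in these routes. Only genes listed in that table could enter it, so that all 37 are listed by construction. RNA had been sequenced from livers of Balb/c mice 5 days after an injection of GalNAc-conjugated antisense oligonucleotides (ASOs), whose sugar group binds a receptor of hepatocytes. In the Liver LL35 ASO group, 3 mice received a mix of ASOs against LL35 (Falcor), a long non-coding RNA of the liver, and in the Liver Luc ASO group 3 mice received an ASO against firefly luciferase, a gene that mice do not have. The dose was 150 mg/kg, which the sample labels give for each ASO and the study's methods give for the mix in total. All 6 mice thus received an oligonucleotide with the same liver-targeting group, and no untreated liver was among them. The ages of the mice are not given in the sources used here, nor is it given whether these mice were fed or fasted. The 7 libraries of AML12 cells, a murine hepatocyte line, were not analysed here.

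The liver table gives 1 level for each gene, the authors' mean of the normalized counts over the liver libraries compared, and it gives no value for a single mouse. Every level below is therefore a mean over both groups of mice without an error, and no comparison of the Liver LL35 ASO and Liver Luc ASO groups was made from it. A comparison of the groups that the authors made is also in the table and was not used. The LL35 gene, 9030622O22Rik, is not listed, and its depletion could therefore not be checked. The number of reads behind each level is unknown. The listed levels ran from 15.6 to 1217470 normalized counts, with a median of 235. Of 8 hepatocyte markers, all were listed, with levels from 10070 for Serpina1a to 1217470 for Alb, the gene of serum albumin. The 6 Kupffer cell markers lay between 120 and 1954 normalized counts, the 6 endothelial markers between 121 and 2171, and the 6 stellate cell markers between 51.8 and 1823. Of 5 skeletal muscle markers, 4 were not listed and the fifth, Pygm, had 19.7. In a piece of liver, few cells of a type and little RNA per cell cannot be told apart.

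Glycolysis breaks glucose down to pyruvate, and gluconeogenesis builds glucose from pyruvate, lactate, glycerol and amino acids. The routes share their reversible reactions and differ at the steps that hexokinase, phosphofructokinase and pyruvate kinase catalyze, which gluconeogenesis bypasses with other enzymes. The liver stores glucose as glycogen after a meal and releases it into the blood during a fast. It owes the release to enzymes that most other tissues lack, such as glucose-6-phosphatase. Many of these reactions are carried out by isozymes, which are products of separate genes with different regulation in liver, muscle and other tissues.

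The promoters of 4 genes are shown because these genes are central to the description of levels. Pck1 and G6pc encode enzymes of gluconeogenesis that glycolysis does not use, Pck2 encodes the less abundant isozyme of the former, and Ldha had the highest level per kilobase of exon among the glycolytic members. Ldha has a second start in the RefSeq table, and the promoter of the first is shown. The sequences are those of RefSeq, build GRCm38.p6, each with 250 bases before and 50 bases after the annotated start. Capitals mark TATAAA (the core of the TATA box), TGACG (the short form of the cyclic AMP response element), TGACGTCA (the full element), TGTTTAC (a forkhead factor motif) and CACGTG (an E-box), searched on both strands.
Pck1, chr2:173152823-173153122, plus strand: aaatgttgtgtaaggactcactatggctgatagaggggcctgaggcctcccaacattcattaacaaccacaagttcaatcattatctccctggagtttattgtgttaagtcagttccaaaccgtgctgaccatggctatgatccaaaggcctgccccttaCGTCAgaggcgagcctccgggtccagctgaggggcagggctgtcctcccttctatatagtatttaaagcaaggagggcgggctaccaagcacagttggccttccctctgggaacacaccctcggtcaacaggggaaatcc
Pck2, chr14:55540016-55540315, plus strand: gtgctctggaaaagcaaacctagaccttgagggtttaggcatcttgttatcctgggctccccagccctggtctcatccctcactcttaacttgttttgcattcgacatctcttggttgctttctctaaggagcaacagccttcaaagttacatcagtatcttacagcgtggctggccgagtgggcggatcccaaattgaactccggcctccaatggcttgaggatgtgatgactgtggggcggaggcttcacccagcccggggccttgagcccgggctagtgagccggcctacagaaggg
G6pc, chr11:101367466-101367765, plus strand: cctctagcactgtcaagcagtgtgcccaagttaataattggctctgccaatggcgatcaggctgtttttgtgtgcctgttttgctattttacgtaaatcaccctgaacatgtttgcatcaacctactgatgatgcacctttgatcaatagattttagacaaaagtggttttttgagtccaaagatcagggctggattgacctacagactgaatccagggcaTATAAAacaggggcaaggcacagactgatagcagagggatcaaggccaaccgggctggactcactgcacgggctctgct
Ldha, chr7:46845554-46845853, plus strand: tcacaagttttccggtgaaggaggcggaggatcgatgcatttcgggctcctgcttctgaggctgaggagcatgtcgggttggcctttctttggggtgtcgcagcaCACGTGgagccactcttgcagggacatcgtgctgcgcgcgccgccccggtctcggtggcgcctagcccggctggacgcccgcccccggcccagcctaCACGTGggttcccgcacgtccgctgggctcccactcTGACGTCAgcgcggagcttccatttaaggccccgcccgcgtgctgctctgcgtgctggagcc

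The Pck1 promoter held the short form of the element 90 bases before the start, on the minus strand, within the longer run ttaCGTCA. The G6pc promoter held a TATA core 29 bases before the start. The Ldha promoter shown held 2 E-boxes, 145 and 48 bases before the start, and a full cyclic AMP response element 12 bases before it, inside which the short form lies on each strand. The other Ldha promoter held only the short form, 143 bases before its start. The Pck2 promoter held none of these letters. GC boxes (GGGCGG), which were not put in capitals, numbered 2 in the Pck2 promoter, 1 in that of Pck1 and 3 in the Ldha promoter shown, and the G6pc promoter held none. Of the 37 genes, 36 had at least 1 promoter in the RefSeq table and Gys2 had none, which gave 55 promoters. The full element was in 1.82% of these 55 and in 1.79% of all 32851 promoters of that length, and TGACG, which every full element contains, in 27.3% and 20.8%. A TATA core was in 7.27% of the members' promoters and in 13.6% of all, and a GC box in 58.2% and 35.7%. The members' promoters were also richer in G and C, with a median of 57.7% against 52.7% of all. Their median number of CG pairs was 15 against 7. The part of this base content in the motif shares was not tested. The forkhead motif was in 1 member promoter, that of Aldoc (1.82%, against 3.65% of all), and an E-box in 12.7% against 7.15%. The 4 genes with a TATA core were G6pc, Pfkfb1, Pgm1 and Pklr. These matches are descriptions of letters and not of bound sites.

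The 37 genes covered a wide range. Their median was 811 normalized counts, against 235 for all listed genes, and it stood above 80.8% of them. The highest level, 51002 for Pck1, was 1516 times the lowest, 33.6 for Hk2. Of the 37 genes, 18 (48.6%) had 1000 normalized counts or more, as did 15.5% of the listed genes, and 6 (16.2%) had under 100, as did 29.2%. Pck1 alone made up 45.9% of the summed normalized counts of the members, and with Pcx, Ldha, Fbp1 and G6pc it made up 71.2%. Because a longer transcript yields more fragments, levels of different genes are compared below per kilobase (kb) of exonic sequence, counted over all isoforms of a gene in GENCODE release M21. On that scale the median was 249.7 normalized counts per kb for the members and 51.5 for all listed genes, and 23 members lay above the third quartile of all listed genes, 128 per kb, while 5 lay below the first, 20.7 per kb.

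**Figure D1:**
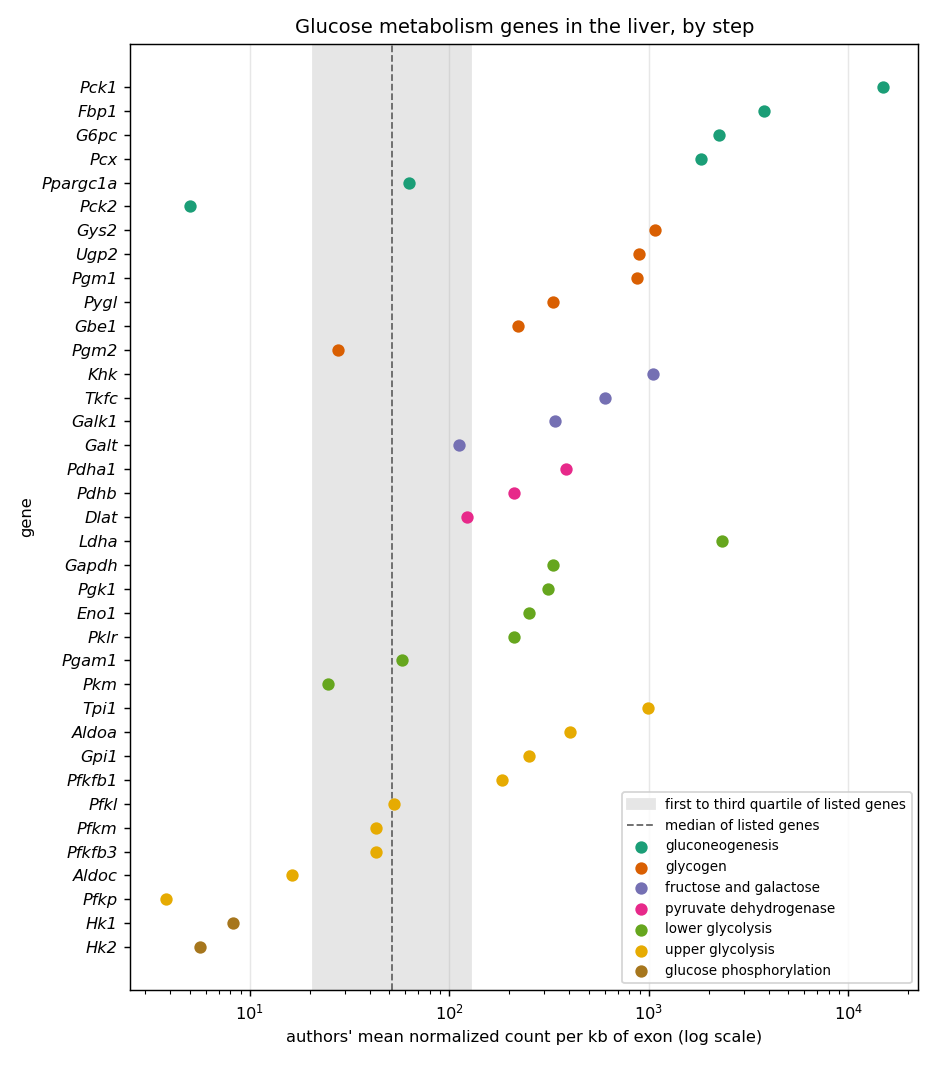
Level of each of the 37 genes as the authors' mean normalized count per kb of exon, on a log axis, grouped by step; the grey band spans the first to the third quartile of all listed genes and the dashed line their median, and each point is a single mean without an error. Of the gluconeogenic genes, 4 lie at 1818 per kb or higher, whereas Pck2, Hk1, Hk2 and Pfkp lie below 10 per kb.

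Gluconeogenesis held 4 of the 5 most abundant genes per kb of exon, and Ldha of lower glycolysis, which ranked 3, was the other. This ranking depended on the length. When sequence shared with other genes was left out of it, Gapdh (5732) and Eno1 (2442) lay above G6pc (2284) and Pcx (2154). Gapdh and Ldha (5389) then also lay above Fbp1 (4514). That scale is described further on. Per kb of coding sequence, Tpi1 (3051) lay above Pcx (2443) and Ldha (7081) above Fbp1 (6366). The 6 gluconeogenic genes made up 66.0% of the members' summed level per kb of exon. Their sum was 22790, of which Pck1 gave 14874. The share was taken on the exon scale only and depends on the length. On that scale Gapdh had 333 and Eno1 249.7, far below their values without shared sequence. Pck1, the cytosolic phosphoenolpyruvate (PEP) carboxykinase that turns oxaloacetate into PEP, had 14874 normalized counts per kb and ranked 19 among all listed genes by its normalized count. Fbp1, the fructose-bisphosphatase that opposes phosphofructokinase, had 3793 normalized counts per kb. G6pc, the catalytic subunit of glucose-6-phosphatase that releases free glucose, had 2238 per kb, and Pcx, the mitochondrial pyruvate carboxylase that starts the route, had 1818. These 4 genes each stood above at least 97.97% of the listed genes per kb. Pck1 thus exceeded Fbp1 3.92 times, G6pc 6.65 times and Pcx 8.18 times per kb.

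Other genes of the same route were far less abundant. Pck2, the mitochondrial PEP carboxykinase, had 38.9 normalized counts, or 4.99 per kb, so that Pck1 made up 99.97% of the pair per kb. Ppargc1a, which encodes the coactivator PGC-1 alpha of gluconeogenic transcription, had 416 normalized counts and 63.0 per kb, close to the median of all listed genes. Of the genes outside the set, G6pc3, the widely expressed glucose-6-phosphatase, had 22.7 per kb, against which G6pc was 98.4 times higher, and Fbp2, the muscle fructose-bisphosphatase, was not listed. Slc37a4, the transporter that brings glucose 6-phosphate to G6pc in the endoplasmic reticulum, had 1092 per kb. Slc2a2, the main glucose transporter of hepatocytes, had 1065 per kb and Slc2a1, a transporter of many other cells, 48.5.

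The members of the first step of glycolysis lay at the low end. Hk1 and Hk2, hexokinases with a high affinity for glucose, had 70.2 and 33.6 normalized counts, or 8.23 and 5.64 per kb. Both lay below the first quartile of the listed genes.

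The 9 genes of upper glycolysis ranged from 3.81 per kb for Pfkp to 994 for Tpi1, the triosephosphate isomerase, with a median of 53.0. Pfkl, Pfkm and Pfkp, the liver, muscle and platelet forms of phosphofructokinase 1, had 354, 144 and 51.0 normalized counts. Per kb these were 53.0, 43.0 and 3.81, so that Pfkl made up 53.1% and Pfkm 43.1% of the family. Pfkl exceeded Pfkm only 1.23 times per kb of exon, but 1.90 times per kb of the longest transcript and 2.46 times per kb of coding sequence. Their coding sequences are equally long, at 2340 bases, whereas the exonic sequence over all isoforms is 6675 bases for Pfkl and 3340 for Pfkm. Per kb of exon, no other family had a leading isozyme with so small a share, although with coding length the leader of phosphofructokinase 2, Pfkfb1, had 50.4% and Pfkl 64.5%. Pfkfb1 and Pfkfb3, the liver and the inducible form of the enzyme that makes and removes fructose 2,6-bisphosphate, had 184 and 42.9 per kb. Pfkfb2, a heart form and not a member, had 73.7 per kb, and Pfkfb4 was not listed.

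The 2 aldolases among the members differed widely. Aldoa, the muscle form, had 401 per kb and Aldoc, the brain form, 16.2. Gpi1, the glucose-6-phosphate isomerase, had 252 per kb.

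In lower glycolysis, Ldha had the highest level per kb of exon. Ldha, the lactate dehydrogenase subunit that interconverts pyruvate and lactate, had 7669 normalized counts and 2317 per kb, whereas Ldhb, the heart subunit outside the set, had 25.1 normalized counts and 15.99 per kb. Ldha made up 99.3% of the pair. Gapdh, the glyceraldehyde 3-phosphate dehydrogenase often used as a reference gene, had 333 per kb of exon. This order did not hold for Gapdh and Ldha when the sequence that each shares with other genes was left out of the length, a scale described further on. Pgk1, the phosphoglycerate kinase, had 314 per kb of exon and Eno1, the common enolase, 249.7. Pgam1, the phosphoglycerate mutase, had 57.9 per kb and its muscle form Pgam2 was not listed. Pklr, the pyruvate kinase of liver and red blood cells, had 686 normalized counts and 212 per kb, and Pkm, the pyruvate kinase of muscle and of dividing cells, 124 and 24.7, so that Pklr made up 89.5% of the pair. Of 5 erythroid markers, 3 were listed, with 42.8 to 316 normalized counts, and their part in the level of Pklr was not tested.

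**Figure D2:**
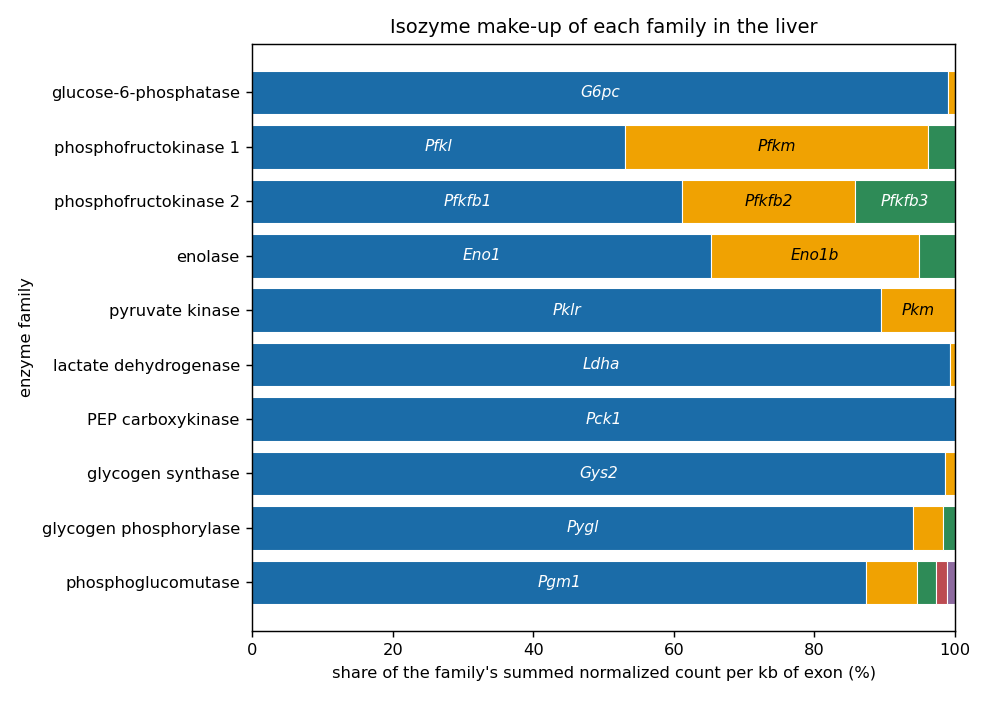
Share of each isozyme in the summed normalized count per kb of exon of its family, for the 10 families with more than 1 listed gene; blue is the most abundant isozyme, followed by the others in falling order, and genes under 9% are not written in. A single isozyme holds over 90% in 5 families, whereas Pfkl holds 53.1%, Pfkfb1 61.2% and Eno1 65.2%.

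Of the 13 families of isozymes reported here, 10 had more than 1 listed gene. The leading isozyme was the same in all 10 under each of the 5 scales tried (per kb of exon, of longest transcript, of coding sequence, per window found in no other gene, and without length). The share of the leading isozyme had a median of 91.8% per kb of exon. The share of Eno1 depended on the length and was 84.5% with coding length and 82.5% with the longest transcript, and 84.5% of the windows of Eno1b, the second enolase, occurred in another gene.

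Several glycolytic genes have close copies elsewhere in the genome, and this bears on their levels. According to the study's methods, reads were counted per gene during alignment with STAR, a mode that counts reads with a single place in the genome. For each gene, the principal mRNA was therefore cut into all windows of 50 bases, and each window was sought in the GENCODE transcripts of every other gene, genes that overlap it included, on both strands. The window length was chosen here and need not be the read length of the libraries. Copies outside annotated transcripts were not sought. The study's library kit was directional, which keeps the strand of the RNA. Whether the strand was used to count reads in overlapping genes is not given in the sources used here. For Gapdh, 82.5% of the windows also occurred in another gene, and 222 genes held at least 1 of them, 213 of these annotated as pseudogenes. The share was 72.2% for Eno1, 68.0% for Pgk1 and 41.5% for Pgam1. For 15 of the 37 members it was above 10%, and 10 of these were among the 16 glycolytic genes. These counts include windows shared only with an overlapping gene, which is not a copy elsewhere. Among the 6 gluconeogenic genes the highest share was 1.86%, for Pck2. The shared windows of Pklr (23.2%), Pfkp (17.1%), Pgm1 (15.0%) and Tkfc (10.9%) all lay in overlapping genes. For Pdha1, 16.9% of the windows were shared and 0.464% occurred in a gene elsewhere.

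The order of the glycolytic genes changed when only windows found in no other gene were taken as length. Gapdh then had 5732 normalized counts per 1000 windows, against 969 per kb of its principal mRNA. Ldha had 5389 and 4342. Gapdh was thus 1.06 times Ldha on the scale of unshared windows. Eno1 rose from 663 to 2442 and Pgk1 from 386 to 1238, while Pgam1 changed from 64.6 to 114 and stayed below its neighbours in the pathway on both scales. Tpi1, with 7.51% of its windows shared, had 1703 and 1899. Some of the copies are themselves listed. Gm13394, an annotated Gapdh pseudogene that shares 65.7% of the Gapdh windows, is listed with 679 normalized counts and Gm7497, another one, with 38.6. Eno1b, a gene that holds 70.5% of the Eno1 windows, is listed with 213. Whether these counts came from the copies or from the parent genes was not tested, and the levels of Gapdh, Eno1, Pgk1 and Pgam1 are uncertain for this reason.

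**Figure D3:**
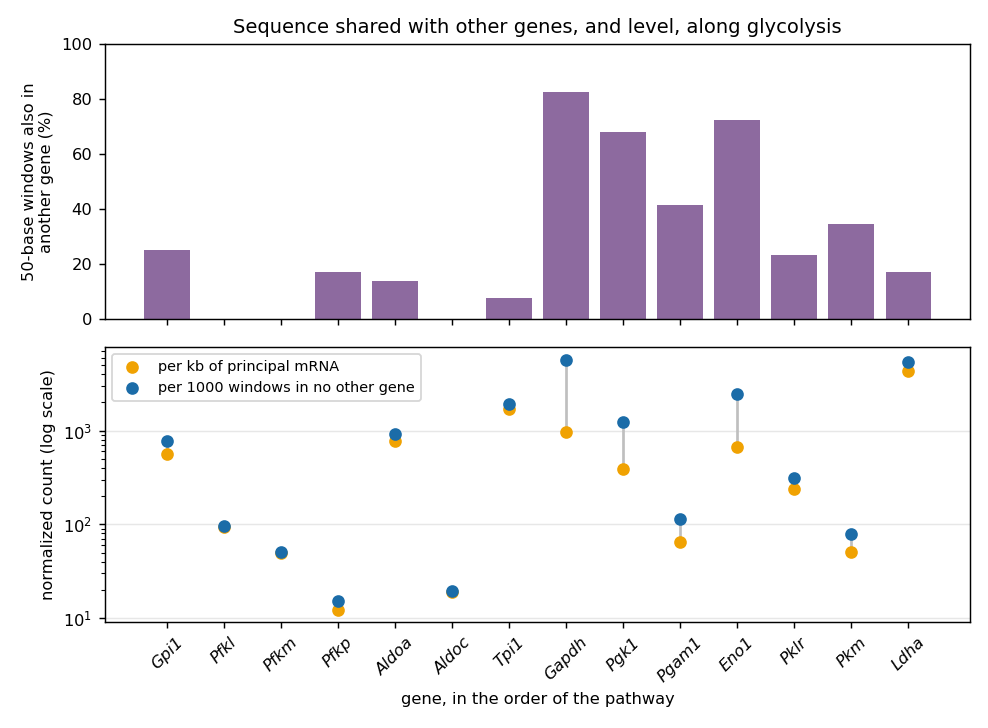
Upper panel, percentage of the 50-base windows of the principal mRNA that also occur in another gene; lower panel, normalized count per kb of principal mRNA (orange) and per 1000 windows found in no other gene (blue), on a log axis, for 14 glycolytic genes in pathway order. Gapdh moves from 969 to 5732 and Eno1 from 663 to 2442, whereas Tpi1 and Ldha move little.

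The opposing enzymes of irreversible steps were set side by side. Fbp1 had 38.0 times the summed level per kb of Pfkl, Pfkm and Pfkp. Pck1 had 62.8 times the sum of Pklr and Pkm, and Pcx 7.68 times. Per kb of the longest transcript these ratios were 27.8, 66.7 and 7.25, per kb of coding sequence 27.2, 57.4 and 5.13, and without length 11.8, 63.0 and 10.7. The gluconeogenic transcript was thus the more abundant of the pair on each of these scales, whereas the size of the ratio of Fbp1 to the phosphofructokinases depended on the length. These are ratios of transcript levels, not of enzyme activities, in mice whose feeding state is not given.

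**Figure D4:**
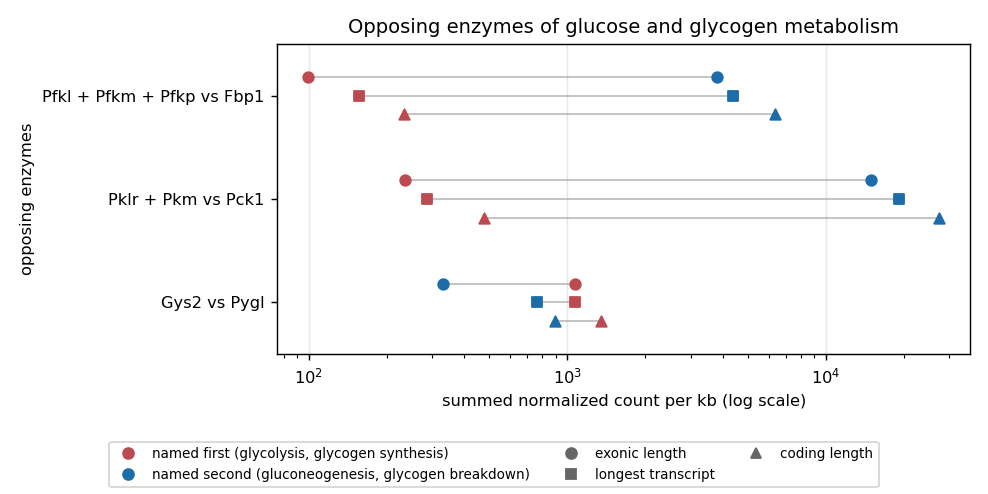
Summed normalized count per kb, on a log axis, of enzymes that drive opposite reactions, each pair given per kb of exon (circles), of the longest transcript (squares) and of coding sequence (triangles); red marks the glycolytic enzymes and Gys2, blue their opponents. The gluconeogenic side is higher in the upper 2 pairs, whereas Gys2 exceeds Pygl between 1.40 and 3.23 times.

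Of the 6 genes of glycogen metabolism, 5 lay between 220.5 and 1069 per kb of exon, above the third quartile of the listed genes. Gys2, the liver glycogen synthase, had 2841 normalized counts and 1069 per kb. Ugp2, which makes the UDP-glucose that the synthase uses, had 889 per kb, and Pgm1, the phosphoglucomutase that links glucose 1-phosphate and glucose 6-phosphate, 868. Pygl, the liver glycogen phosphorylase that breaks glycogen down, had 331 per kb and Gbe1, the branching enzyme, 220.5. Pgm2, a relative of Pgm1 that acts mainly on pentose phosphates, had 27.6 per kb, so that Pgm1 exceeded it 31.5 times. The identifier of Pgm1 in the table is ENSMUSG00000025791 and that of Pgm2 ENSMUSG00000029171, which matters because these symbols have been exchanged between the genes in mouse nomenclature.

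The liver forms dominated the glycogen enzymes. Gys2 made up 98.5% of its pair with Gys1, the muscle glycogen synthase, which had 75.9 normalized counts. Pygl made up 94.0% of the phosphorylases, against 4.23% for Pygb, the brain form, and 1.74% for Pygm, the muscle form. The ratio of Gys2 to Pygl depended on the length used, with 3.23 per kb of exon, 1.40 per kb of the longest transcript, 1.504 per kb of coding sequence and 1.25 without length. Other glycogen genes outside the set included Ppp1r3b, a glycogen-targeting subunit of protein phosphatase 1, with 645 per kb, and Gyg, the glycogenin primer, with 22.1. All 9 other glycogen genes considered were listed, with a median of 64.9 per kb.

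Fructose and galactose enter through enzymes of their own. Khk, the ketohexokinase that phosphorylates fructose, had 1890 normalized counts and 1052 per kb. Tkfc, the triokinase that phosphorylates the glyceraldehyde made from fructose, had 2782 normalized counts and 603 per kb, so that Khk was the higher per kb of exon, 1.75 times, and the lower without length, 0.679 times. Galk1, the galactokinase, had 339.7 per kb and Galt, which transfers UMP between galactose 1-phosphate and UDP-glucose, 112. Of the Galt windows, 31.3% occurred in another gene, overlapping genes included, and 11.1% in a gene elsewhere. Galm, the mutarotase of the galactose route and not a member, had 380 per kb. Sord, the sorbitol dehydrogenase that makes fructose from sorbitol, had 2602 per kb, above all 4 of these members, although 31.3% of its windows occurred in another gene.

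Pyruvate can enter the citric acid cycle through the pyruvate dehydrogenase complex. Pdha1 and Pdhb, the alpha and beta subunits of its first enzyme, which form a tetramer with equal numbers of each, had 1444 and 811 normalized counts. Per kb of exon Pdha1 was 1.84 times Pdhb, per kb of the longest transcript 0.946 times and per unshared window 0.782 times, so that their order was not settled by these data. Of the Pdhb windows 30.3% occurred in another gene. Dlat, the core acetyltransferase, had 123 per kb, below both subunits. Of the genes outside the set, Dld, the dehydrogenase that several complexes share, had 364 per kb and Pdhx, the binding protein of the core, 75.8. The kinases that switch the complex off were led by Pdk2 with 336 per kb, ahead of Pdk1 with 85.5 and Pdk4 with 84.4, while Pdk3 was not listed. Of the phosphatases that switch it on, Pdp2 had 184 per kb and Pdp1 5.87. Mpc1 and Mpc2, the mitochondrial pyruvate carrier, had 194 and 282 per kb.

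Of 55 other genes of glucose metabolism that were considered beside the members, 47 were listed, with a median of 364 normalized counts and 85.5 per kb, and 8 were not. A gene that is not listed is not shown to be absent from the liver, since the table starts at 15.6 normalized counts and the listed genes are those analysed here. Among the transcriptional regulators, Hnf4a, a nuclear receptor of hepatocytes, had 2550 per kb, Creb3l3, a fasting-induced factor of the liver, 1252, Mlxipl, which encodes the carbohydrate response factor ChREBP, 380, Foxo1, which insulin restrains, 160, and Srebf1, which insulin induces, 128. Ppargc1a, the regulator among the members, lay below each of these and above Ppargc1b, its relative, at 42.1 per kb.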

How the data were processed

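Liver RNA was depleted of rRNA and sequenced by the authors. According to the study's methods, the authors aligned the reads with STAR 2.5.3a, counted them per gene, and normalized the counts by RLE in DESeq2. In the table they deposited, each gene has 1 mean of its normalized counts, a signal averaged over the compared liver libraries. It is taken here to cover all 6 livers. The other 5 numeric columns hold the authors' own comparison of the groups (fold change, its error, statistic and p-values) and were not used. The genome build was not given in the sources used here, and gene positions in it are therefore not printed. Promoter positions are those of RefSeq. Depth per library is unknown, and so is the precision of each mean.

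Exonic lengths were joined by Ensembl identifier from GENCODE release M21 for 11754 of the 11779 genes, all 37 members included, and levels were divided by them. The principal mRNA was the protein-coding transcript with an APPRIS principal tag and the longest coding sequence. Windows of 50 bases were compared as exact letters, and this search and the exon lengths were tested on simulated data. Python 3.11.15, numpy 2.4.6, pandas 2.3.3 and matplotlib 3.10.9 were used. The members and lists were chosen with earlier results of these data known. Every listed member is named, and other genes come from lists of isozymes, pathway genes and markers. Genes singled out within these lists were chosen after their values were seen, as were the promoters shown and the windows. No test was made, since 1 value per gene gives no replicate error. Some genes of these routes, and results that need them, are not reported here.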

Additional observations from a re-analysis of the deposited data

How the results depend on the processing

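No result of a test could change, because none was made, and no mouse could be left out. No paired analysis was possible because the table holds no values for single mice. The members' median level of 249.7 normalized counts per kb of exon was 811 without length, and, on scales chosen after seeing the data, 563 per kb of coding sequence, 395 per kb of the longest transcript and 621 per 1000 windows found in no other gene. The median share of the leading isozyme, 91.8%, was 90.4% without length, 90.3% with coding length, 90.8% with the longest transcript and 90.2% with unshared windows. The median member stood above 80.8% of all listed genes, 77.2% of those with at least 50 normalized counts and 80.4% of the protein-coding ones. The 18 members with at least 1000 normalized counts were 23 at a threshold of 500 and 11 at 2000. The planned length from RefSeq proteins was not run, since no protein table was used here. Levels of Gapdh, Eno1, Pgk1 and Pgam1 depend on how shared sequence is treated.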
